A study of Homo sapiens with 4 samples.

Results

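MCF12A is an established, non-tumorigenic epithelial line derived from human breast tissue. Of the 4 samples of the study, 2 were unexposed cultures, and these were chosen by their labels as controls, without regard to any measured value. Control 1 was the unexposed culture of an experiment with 25 mM ethanol for 1 week, and control 2 that of an experiment with 2.5 mM acetaldehyde for 1 week. All 4 cultures grew as monolayers on plastic, in DMEM/F12 with horse serum, epidermal growth factor (EGF), hydrocortisone, insulin and cholera toxin, so both controls carried every agent of this medium. The labels give 1 array per culture and no passage number, cell density or date, and the difference between the controls therefore has no replicate check. Whatever separated the experiments cannot be told apart from chance variation between cultures. The values describe how far apart unexposed cells of the line lay in differentiation and culture state.

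Breast epithelium has an inner layer of luminal cells, marked by the keratins KRT8 and KRT18, and an outer layer of basal cells, marked by KRT5 and KRT14. Stratified epithelia such as the epidermis build a cornified envelope under the membrane of their upper cells, in which transglutaminases crosslink involucrin, loricrin and small proline-rich (SPRR) proteins, while ceramides fill the space between the cells and kallikreins digest the junctions that hold them. Cultured breast epithelial cells of basal character can express parts of this squamous programme.

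The arrays were of the Affymetrix Human Gene 1.0 ST design, which read each transcript with many short probes, and the values are linear intensities without read depth. A gene was tested if its intensity reached 155, the median over all named genes and arrays, on at least 1 of the 4 arrays, which left 10373 genes. The deposited values appear to have been normalized separately within each experiment. The median intensity over all probe sets was 92.2 in control 1 and 90.2 with ethanol, but 113.8 in control 2 and 113.0 with acetaldehyde. All 4 arrays were therefore also quantile normalized together, and the difference is given on that scale where it moves a statement. Over the genes tested, log2 values of the controls correlated at 0.876 with a standard deviation of 0.67 for their differences. The spread was smaller between each control and the exposed culture of its own experiment, at 0.46 for control 1 and ethanol and 0.21 for control 2 and acetaldehyde.

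Of the markers fixed for breast basal cells, all 6 that could be named were above the filter on all 4 arrays. KRT5 had intensities of 11172 in control 1 and 12169 in control 2. Among luminal markers, KRT8 (3156 and 2579.9) and KRT18 (2529 and 2134) were strongly detected, while the estrogen receptor ESR1 and the progesterone receptor PGR stayed below the filter on every array, at no more than 118.3. None of the 4 endothelial markers and none of the 3 adipocyte markers was tested. Their summed intensities were 213 and 212 in control 1 and 259 and 291 in control 2. Of the fibroblast markers 2 of 7 were tested, COL1A1 and DCN, and of the blood cell markers 1 of 5, CD14. Longer lists of such markers held further genes that were tested. The endothelial genes ENG and CLDN5 stood at 364 and 163 in control 1 and 594 and 191 in control 2. The blood cell marker CD68 stood at 1622 and 1916.5, and the stromal FBLN1 at 841 and 815. The labelled epithelial identity was thus carried by keratins of both layers in either culture.

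In control 2, 441 genes were at least 2-fold higher than in control 1 and 503 were at least 2-fold lower, which is 4.25% and 4.85% of the genes tested (9.10% in all). Counts of list members past 2-fold are to be read against these shares. After quantile normalization the counts were 390 and 542. The median difference, control 2 minus control 1, was 0.06 on the log2 scale, and 54.5% of all genes were higher and 45.5% lower. Dim genes leaned upward on the deposited scale: the median difference was 0.22 in the dimmest of 3 equal classes of genes and -0.06 in the brightest, against 0.05 and 0.01 after quantile normalization. At the threshold, the topoisomerase TOP2A lay just inside at 1037 and 2075, and the histone H3C2 just outside at 2152 and 1076.

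**Figure D1:**
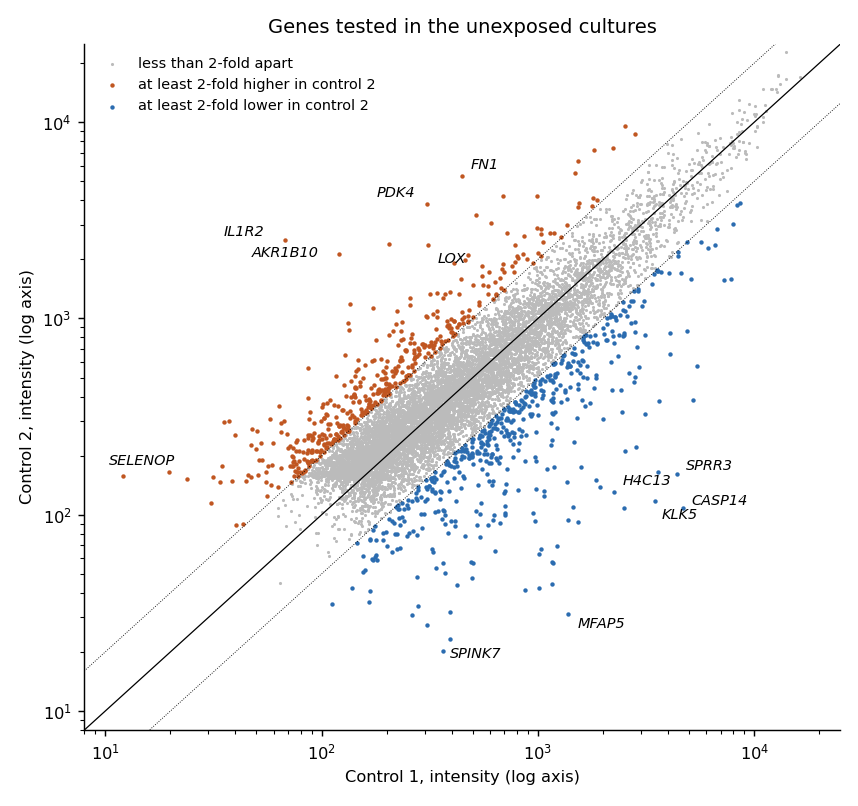
Intensity of each of 10373 genes tested in control 1 (horizontal, log axis) and control 2 (vertical, log axis); 1 point is 1 gene, the solid line marks equal values and the dotted lines a 2-fold difference. The 441 genes above the upper dotted line include IL1R2 and FN1, and the 503 below the lower one include MFAP5 and SPRR3.

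The exposed cultures gave another pair of arrays from the same experiments, although ethanol and acetaldehyde are different agents. Of the 441 genes higher in control 2, 428 (97.1%) were also higher with acetaldehyde than with ethanol, against 50.8% of all genes, and 206 of them were at least 2-fold higher. Of the 503 lower genes, 437 (86.9%) were also lower, against 49.2% of all genes, and 251 were at least 2-fold lower. The corresponding background in the exposed pair was 3.04% of genes at least 2-fold higher and 4.12% at least 2-fold lower. Across the 10373 genes the differences of both pairs correlated at 0.77 (0.79 after quantile normalization). The pairs share no array but share the experiment and its normalization, and genes are not independent replicates.

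The only test this design allows is of the experiment over both pairs, with limma on all 4 arrays and exposure as a second term. It asks whether the mean of both differences stands out from the disagreement between them, with 1 residual degree of freedom, and it does not test the unexposed cultures alone. With Benjamini-Hochberg adjustment at 0.05, 1934 genes (18.6%) were higher in the acetaldehyde experiment and 1717 (16.6%) lower, the shares against which limma counts of list members are to be read. Among the genes at least 2-fold apart between the controls, limma called 391 of the 441 higher genes (88.7%) and 387 of the 503 lower genes (76.9%). These genes were selected on the control difference, which is part of the value tested, so these shares are no independent support. With 1 array left out the exposure term had to be dropped. Limma then called between 1760 and 2099 genes in each direction without an array of the ethanol experiment, but 0 without control 2 or without acetaldehyde, where 2216 and 2483 genes had an unadjusted p under 0.05.

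The largest difference upward was that of IL1R2, the decoy receptor that binds interleukin-1 without signalling. Its intensity was 67.5 in control 1 and 2523 in control 2, and 59.4 with ethanol and 2588 with acetaldehyde. Both arrays of one experiment were near background and both of the other were bright, a 37.4-fold difference between the controls (adjusted p = 0.00295, limma). The aldo-keto reductase AKR1B10 was 17.8-fold higher in control 2, at 2139 against 120.0. Fibronectin (FN1), a matrix glycoprotein, was higher by 3.58 on the log2 scale, at 5329 against 446 (7363 with acetaldehyde and 1124 with ethanol), and lysyl oxidase (LOX), which crosslinks collagen and elastin, 7.62-fold, at 2371 against 311. PDK4, the kinase that shuts off pyruvate dehydrogenase, stood at 308 in control 1 and 3829 in control 2. The protease inhibitors TFPI2 (204 and 2399) and SERPINA3 (136 and 1190.0) followed. SELENOP, a selenium carrier, differed 13.1-fold, but its control 1 value of 12.1 lies far below the filter and the log2 difference shrank from 3.71 to 3.30 after quantile normalization.

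Also among the 15 highest differences were the syndecan SDC2, the phosphatase PTP4A3, the tetraspanin TSPAN7, the choline transporter family member SLC44A5, VWDE, AKR1C1 and AKR1C3. Their log2 differences ran from 2.70 for AKR1C3 to 3.06 for SLC44A5. All 15 were higher with acetaldehyde than with ethanol as well. Limma called all 15 with adjusted p between 0.00295 and 0.0172, but their selection by the control difference enters that test, and 6 of them were under the filter on both arrays of the ethanol experiment. Among the 5 smallest p upward was PLA2G4A, the cytosolic phospholipase that releases arachidonic acid, at 58.0 and 58.0 in one experiment and 309 and 308 in the other.

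Downward, MFAP5, a microfibril protein, was 44.2-fold lower in control 2 (1383 and 31.3), and CASP14, the caspase of cornifying keratinocytes, 43.1-fold (4658 and 108). Kallikrein KLK5 stood at 3469.9 in control 1 and 117 in control 2. The envelope protein SPRR3 stood at 4404 and 162, and sciellin (SCEL), another envelope precursor, at 1014 and 42.3. The lecithin retinol acyltransferase LRAT, the amino acid transporter SLC6A14, the carboxypeptidase CPA4, MACC1, GDPD3, SERPINB7, SPINK7, CRCT1 and BPIFC had log2 differences between -4.70 and -4.08. In control 2 the highest value among the 15 lowest genes was 166, for GDPD3, so these folds rest on dim signals on one side.

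The histone gene H4C13 completed the 15 lowest, at 2243 and 1922 in one experiment against 131 and 94.5 in the other. Not all of the 15 were lower in the exposed pair: SPRR3, SPINK7 and SLC6A14 had log2 differences of 1.30, 0.67 and 0.01 there. For these 3 genes, and for CRCT1 and BPIFC, the limma test of the experiment was not passed (adjusted p between 0.0919 and 0.372). Among the 5 smallest p downward were those of H4C13, the basal keratin KRT15, the uroplakin UPK1B and ALG13, an enzyme subunit of N-glycan assembly. UPK1B stood at 5440.5 and 3089 in the ethanol experiment and at 573 and 371 in the acetaldehyde experiment.

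The cornified envelope genes were much lower in control 2. Of 37 listed genes 23 were tested, and 20 of these were lower, 18 at least 2-fold, against 4.85% of all genes. Their median log2 difference was -2.16, against 0.06 over all genes. Because 8 of the 23 reached the filter through control 1 alone among the controls, the 9 genes above the filter on all 4 arrays are given too: all 9 were lower, 8 at least 2-fold, with a median of -2.30. Without the filter the median of all members named was -1.23. SPRR1A, a small proline-rich protein, stood at 7794 in control 1 and 1581 in control 2, and SPRR1B, its close relative, at 6129 and 2282. Transglutaminase 1 (TGM1), the membrane-bound crosslinking enzyme, stood at 2416 and 434, and suprabasin (SBSN) at 4095 and 662. Corneodesmosin (CDSN), an adhesive protein of the cornified layer, was 6.25-fold lower, and involucrin (IVL) was 3.40-fold lower, at 648 and 190.4. Filaggrin (FLG), which bundles keratin, stood at 326 and 64.4. LCE1C, a late envelope protein, went the other way, at 112 and 233. The SPRR and LCE genes are families of close copies, so signal may be shared among their members.

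The exposed pair did not show this direction. With acetaldehyde against ethanol, 17 of the 23 envelope genes were higher and 6 lower. Their median was 0.40 (0.07 after quantile normalization, and 0.16 over the 9 bright on all arrays). SPRR1A stood at 225 with ethanol and 752 with acetaldehyde, and SPRR3 at 61.8 and 152. Control 1 had the highest intensity of the 4 arrays for 20 of the 23 genes, against 19.8% of all genes. TGM1 stood at 311 with ethanol and 218 with acetaldehyde, both nearer to control 2 than to control 1. The limma test of the experiment called 4 of the 23 lower (SCEL among them, adjusted p = 0.0205) and 1 higher, against 16.6% and 18.6% of all genes.

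Promoters of the envelope genes often hold one motif. RefSeq promoter windows (GRCh38.p14, from 250 bases before to 50 after the start) were found for 20 of the 23 genes tested, and 12 hold the AP-1 motif TGANTCA on either strand, against 7.73% of 27195 promoters and 4.33% of those of genes tested. AP-1 sites bind JUN and FOS family factors, and the pattern counted here allows any base in its middle position. Members with and without a match had median log2 differences of -2.23 and -1.89. A match describes the letters and shows no binding. The promoters of 3 of these genes are shown because their genes carry the difference described above, each as the 250 bases before the start, 5′ to 3′ on the gene's strand, with AP-1 matches in capitals. Those of SPRR3 (chr1:153001499-153001748), SPRR1B (chr1:153030953-153031202) and IVL (chr1:152908296-152908545) lie on the plus strand.
SPRR3: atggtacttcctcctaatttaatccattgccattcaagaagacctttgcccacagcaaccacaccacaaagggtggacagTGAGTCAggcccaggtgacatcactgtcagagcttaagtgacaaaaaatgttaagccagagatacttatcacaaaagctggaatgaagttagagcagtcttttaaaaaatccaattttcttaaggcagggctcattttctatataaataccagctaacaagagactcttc
SPRR1B: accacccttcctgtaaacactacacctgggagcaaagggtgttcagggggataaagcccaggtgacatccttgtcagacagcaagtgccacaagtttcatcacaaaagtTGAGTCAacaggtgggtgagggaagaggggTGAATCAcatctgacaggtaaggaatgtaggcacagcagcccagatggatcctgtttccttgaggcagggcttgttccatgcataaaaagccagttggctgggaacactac
IVL: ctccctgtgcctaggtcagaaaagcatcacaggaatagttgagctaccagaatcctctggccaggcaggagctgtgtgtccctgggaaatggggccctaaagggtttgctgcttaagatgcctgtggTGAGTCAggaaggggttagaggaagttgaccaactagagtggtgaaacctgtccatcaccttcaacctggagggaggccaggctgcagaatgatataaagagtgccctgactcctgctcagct
The match begins 170 bases before the start in SPRR3. SPRR1B has 2 matches, at 141 and 111, and IVL has 1. The match at 111 in SPRR1B reads TGAATCA, and the others shown read TGAGTCA.

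Kallikreins, serine proteases that digest corneodesmosomes, and their SPINK inhibitors were lower in control 2 for 9 of 10 members tested, 8 of them at least 2-fold, with a median of -2.36 (-0.79 without the filter). KLK6 was 14.7-fold lower, from 1379 in control 1, and KLK7 stood at 2844 and 221. KLK10 stood at 4864 and 860.2, and KLK8 was 4.64-fold lower. In this list 6 genes passed the filter through control 1 alone among the controls, and the 3 bright on all arrays had a median of -2.50. In the exposed pair 7 of the 10 were also lower, 4 at least 2-fold, with a median of -0.39. KLK7 was at 593 with ethanol and 173 with acetaldehyde. The 6 clade B serpins tested, intracellular protease inhibitors, were all lower, 4 at least 2-fold (4.85% of all genes), with a median of -1.72 (-0.82 without the filter). In the exposed pair 4 of the 6 were lower, 2 at least 2-fold, with a median of -0.68, and limma called 4 lower and 0 higher (16.6% and 18.6% of all genes). SERPINB13 and SERPINB3 stood at 2348 and 2243 in control 1 and 645 and 754 in control 2. SERPINB5 (maspin), at 2886 and 1637, differed less.

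Keratins of suprabasal and stressed epithelium were split. KRT4 and KRT80 were 6.72-fold and 7.03-fold lower in control 2, at 176 and 100.3, and KRT13 was at 431 and 166. KRT16, the keratin of wounded and activated epidermis, was at 4267 and 2743. KRT10, the main suprabasal keratin of epidermis, was not lower: it stood at 1298 and 1571, while ethanol and acetaldehyde stood at 70.5 and 290.0. Its partner KRT1 stood at 86.9 and 213. Over the 9 keratins tested 7 were lower and 4 at least 2-fold, with a median of -0.74 (-0.24 without the filter), but a single one was bright on all 4 arrays.

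S100 proteins, small calcium binders most of whose genes lie beside the envelope genes on the long arm of chromosome 1, went both ways. Of 13 tested, 7 were higher and 6 lower, 2 at least 2-fold higher and 0 at least 2-fold lower. The antimicrobial S100A7 (psoriasin) stood at 371 in control 1 and 1326 in control 2. S100A8, a subunit of calprotectin, stood at 3973 and 6998, and S100A9, the other subunit, at 1748 and 2274. S100A2 and S100P were lower, at 706 and 1035 against 1395 and 2023. The protease inhibitors SLPI (10297 and 7484) and PI3 (5416 and 4120.1) differed by less than 2-fold. Of 9 tested genes of secreted protease inhibitors and antimicrobial proteins 3 were higher in control 2 and 6 lower, with a median of -0.46. Only PGLYRP3 was at least 2-fold lower, at 1676 and 500. In the exposed pair all 9 were higher with acetaldehyde, with a median of 0.64 (0.38 after quantile normalization).

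Genes for the barrier lipids were divided by level. CERS3, the synthase of very long chain ceramides, stood at 1063 in control 1 and 132 in control 2. The acid lipase family member LIPK, CYP4F22, which hydroxylates the fatty acid of those ceramides, and the dehydrogenase SDR9C7 were 12.2-fold, 6.64-fold and 6.99-fold lower. The lipoxygenase ALOX15B was higher, at 988 and 4210.0, as in the exposed pair (1146 and 3172). Of 15 tested, 7 were at least 2-fold lower and 2 at least 2-fold higher, with a median of -0.87 (-0.58 without the filter). Of these 15, 6 passed the filter through control 1 alone among the controls, and the 7 bright on all arrays had a median of 0.02.

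Transcription factors of squamous differentiation were mostly lower, 17 of 22, with 6 at least 2-fold lower and a median of -0.42 (-0.85 over the 11 bright on all arrays). The ETS factor EHF stood at 1854 in control 1 and 514 in control 2, and the grainyhead factors GRHL1, GRHL2 and GRHL3 were 3.58-fold, 3.20-fold and 2.32-fold lower. PRDM1 (BLIMP1) stood at 752 and 296, and ZNF750 at 1870.3 and 988. In the exposed pair 15 of the 22 were higher, with a median of 0.33. That median was 0.12 after quantile normalization and -0.09 over the 11 bright on all arrays. EHF stood at 191 with ethanol and 318 with acetaldehyde, so here too control 1 was the high culture. In bulk RNA, fewer cells of a type and less RNA per cell cannot be told apart.

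**Figure D2:**
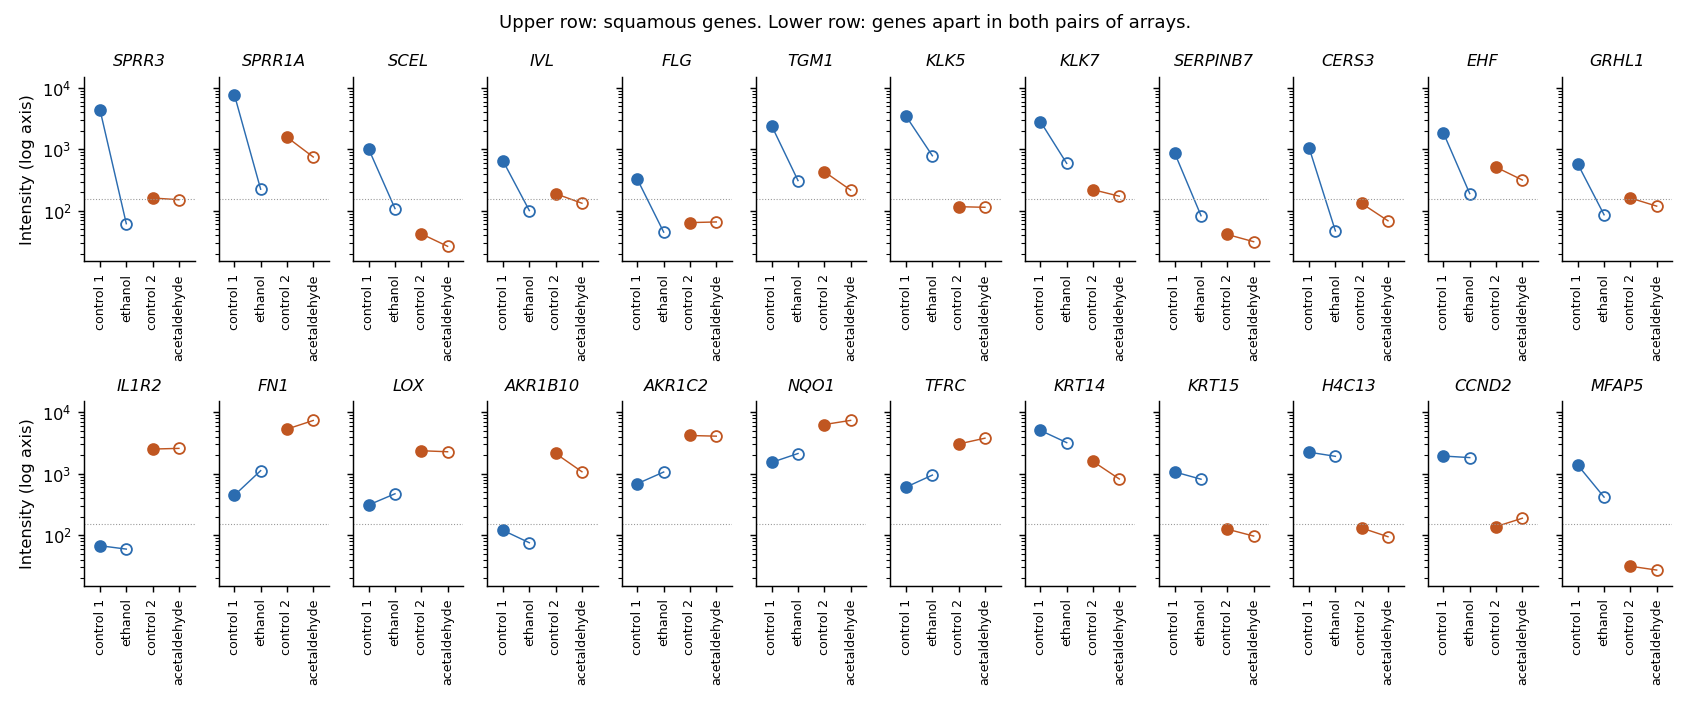
Intensity (log axis) of 24 genes on each array, with filled points for the unexposed and open points for the exposed culture, blue for the ethanol and orange for the acetaldehyde experiment, and a dotted line at the filter of 155. The genes were picked to show 1 pattern per row, so the rows do not stand for their lists. In the upper row control 1 stands above the other cultures. In the lower row both cultures of one experiment lie apart from both of the other. Other members of the squamous lists, such as KRT10 and S100A8, stood highest in control 2.

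Among desmosomal genes, which anchor keratin at cell contacts, 11 of 12 tested were lower in control 2, 5 at least 2-fold, with a median of -0.84. Over the 10 bright on all arrays the median was -0.59. In the exposed pair 8 were lower, 1 at least 2-fold, and 4 higher, with a median of -0.33. Control 1 had the highest intensity of the 4 arrays for 11 of the 12, against 19.8% of all genes. The cadherin DSG3 stood at 6733 and 2863, DSC2 at 2807 and 964, and the differentiation-linked DSG1 and DSG4 at 168 and 422 in control 1 and 41.1 and 43.9 in control 2. DSG2, the cadherin of simple epithelium, stood at 1295 and 1492. Of 13 tight junction genes 7 were lower and 6 higher, none 2-fold. E-cadherin (CDH1), the main adhesion molecule of epithelium, was 2.51-fold lower, at 2572 and 1025, and at 2062 and 768 in the exposed pair (adjusted p = 0.00903, limma). The repressor ZEB1 and the intercellular adhesion molecule ICAM1 were 2.92-fold and 3.11-fold higher, both from control 1 values under the filter. The list of cadherins, adhesion molecules and their regulators was split. Its member farthest apart, the cadherin CDH11, was lower in control 2, at 138 and 42.5, both under the filter. In the exposed pair CDH11 stood at 484 with ethanol and 41.1 with acetaldehyde. Of 16 tested 11 were higher, 5 at least 2-fold, and 5 lower, 4 at least 2-fold, with a median of 0.25. In the exposed pair 4 were higher and 12 lower, with a median of -0.21. Vimentin (VIM), a mesenchymal filament chosen after its values were seen, stood at 2677 and 3264.

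Luminal markers were lower in control 2 for 12 of 13 tested, 5 of them at least 2-fold, with a median of -0.88 (-0.27 without the filter), and in the exposed pair for 10, with a median of -0.76. CD24 stood at 2204 in control 1 and 431 in control 2, and EPCAM, an epithelial adhesion molecule, at 859 and 370.2. The mucin MUC1 stood at 2682 and 1226, and KRT7 at 6047 and 3129.8. The luminal factors GATA3 and FOXA1 differed by less than 2-fold, at 274 and 263 against 236 and 203. KRT19, another simple keratin, was the 1 member higher in control 2, and it passed the filter through control 2 alone (103 and 184). In the exposed cultures CD24 stood at 1003 with ethanol and 358 with acetaldehyde.

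Basal markers went both ways: 8 of 13 were higher and 5 lower, with a median of 0.21. KRT14 stood at 5075 and 1587 and its relative KRT15 at 1071 and 125. Both keratins were lower in the exposed pair too, KRT14 at 3212 and 822, and limma called both (adjusted p = 0.00848 and 0.00413). KRT5, the partner of KRT14, differed little on the deposited scale (log2 difference 0.12, or -0.08 after quantile normalization). MME (CD10), a protease of the surface of myoepithelial cells, was 3.37-fold higher in control 2, at 1859 against 552. The integrin ITGB4 was at 4371 and 6546, and the receptor EGFR at 2605 and 3040.2.

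Laminins, the proteins of the basement membrane, and the hemidesmosome genes that bind them were higher in control 2 for all 10 tested, 3 at least 2-fold, with a median of 0.66 (0.35 without the filter). Laminin LAMB1 stood at 1482 in control 1 and 5481 in control 2, and LAMC1 at 1056 and 2440.3. LAMB1 was also higher in the exposed pair (1942 and 5254), but over the list 6 were higher and 4 lower there. Limma called 6 of the 10 higher and 0 lower, against 18.6% and 16.6% of all genes. TGFBI, an adhesive matrix protein induced by TGF-beta, stood at 2815 and 8656, and transglutaminase 2 (TGM2), which crosslinks matrix, at 256 and 1275. Thrombospondin 1 (THBS1) was lower, at 2401 and 1045. Among 19 matrix proteins and crosslinkers 6 were at least 2-fold higher and 2 lower, against 4.25% and 4.85% of all genes, with a median of 0.47. Of the 19, 5 passed the filter through control 2 alone among the controls, and the 11 bright on all arrays had a median of 0.03. DCN, a proteoglycan of fibroblasts, stood at 34.8 and 177. The urokinase PLAU and its receptor PLAUR, which start plasmin activity at the cell surface, were 2.38-fold and 2.87-fold lower, and the inhibitor SERPINE2 2.28-fold. Most of their list, that of metalloproteinases and inhibitors, went the other way. Of 13 tested 9 were higher, 2 at least 2-fold (TFPI2 11.8-fold and MMP2 2.53-fold), and 4 lower, 3 at least 2-fold. The list median was 0.34, and -0.18 in the exposed pair.

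Mitotic genes were higher in control 2. Of 46 tested, 36 were higher, 12 at least 2-fold, against 4.25% of all genes, with a median of 0.69, and in the exposed pair 34 were higher with a median of 0.42. Limma called 28 higher and 2 lower, against 18.6% and 16.6% of all genes. The kinesin KIF20A, needed for cytokinesis, stood at 317 in control 1 and 1335 in control 2, and CENPF, a kinetochore protein, at 327 and 1059. The spindle proteins ASPM and DLGAP5 were 2.87-fold and 2.52-fold higher. CDC20, the activator of the anaphase-promoting complex, stood at 1140.5 and 2708, and the phosphatase CDC25B at 761 and 1839. In the exposed pair KIF20A stood at 836 with ethanol and 1301 with acetaldehyde, a smaller gap than between the controls.

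Promoters of mitotic genes often hold a CCAAT box and the cell cycle homology region, the element through which the DREAM and MuvB complexes act. Of 39 promoters found, 31 (79.5%) hold CCAAT on either strand, against 35.7% of all promoters, and 28 (71.8%) hold TTTGAA on either strand, against 15.4%. Members without the TTTGAA match had a larger median difference (1.06 over 11 genes) than members with it (0.49). The promoters of CDC20 (chr1:43358731-43358980, plus strand) and DLGAP5 (chr14:55191586-55191835, minus strand) are shown as examples of both elements, in capitals, in the 250 bases before the start.
CDC20: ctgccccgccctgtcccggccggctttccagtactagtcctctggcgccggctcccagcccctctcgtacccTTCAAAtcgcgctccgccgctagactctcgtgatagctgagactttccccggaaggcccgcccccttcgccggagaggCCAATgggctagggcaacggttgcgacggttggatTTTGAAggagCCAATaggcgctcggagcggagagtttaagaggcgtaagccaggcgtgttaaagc
DLGAP5: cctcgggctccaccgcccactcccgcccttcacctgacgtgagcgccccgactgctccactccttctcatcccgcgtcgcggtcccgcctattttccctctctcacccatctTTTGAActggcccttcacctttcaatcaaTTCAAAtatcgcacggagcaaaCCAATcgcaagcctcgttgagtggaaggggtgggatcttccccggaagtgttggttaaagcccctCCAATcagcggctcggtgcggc
Each holds 2 CCAAT matches and 2 TTTGAA matches.

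Genes of the start of the cycle were not higher as a group. Of 49 genes of DNA replication and the G1/S transition 19 were higher and 30 lower, with a median of -0.13 (-0.26 in the exposed pair), and limma called 0 higher and 15 lower, against 16.6% of all genes. Cyclin D2 (CCND2) had the largest difference, at 1943 in control 1 and 138 in control 2, with 1832 with ethanol and 189 with acetaldehyde. Cyclin E2 (CCNE2) stood at 744 and 240.5 and the licensing factor CDC6 at 336 and 185. The replication clamp PCNA stood at 738 and 504.

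Histone genes of the replication-dependent class, which are transcribed in S phase, were lower in control 2 for 33 of 36 tested, 20 at least 2-fold, against 4.85% of all genes, with a median of -1.04. Among the 24 bright on all arrays, 23 were lower and 13 at least 2-fold. With acetaldehyde against ethanol 29 of 36 were lower, with a median of -0.65, and limma called 23 lower and 2 higher, against 16.6% and 18.6% of all genes. H2BC3 stood at 626 and 99.6, H4C8 at 529.6 and 142 and H2AC13 at 667 and 198. Copies of these genes are nearly identical, so single genes are uncertain.

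**Figure D3:**
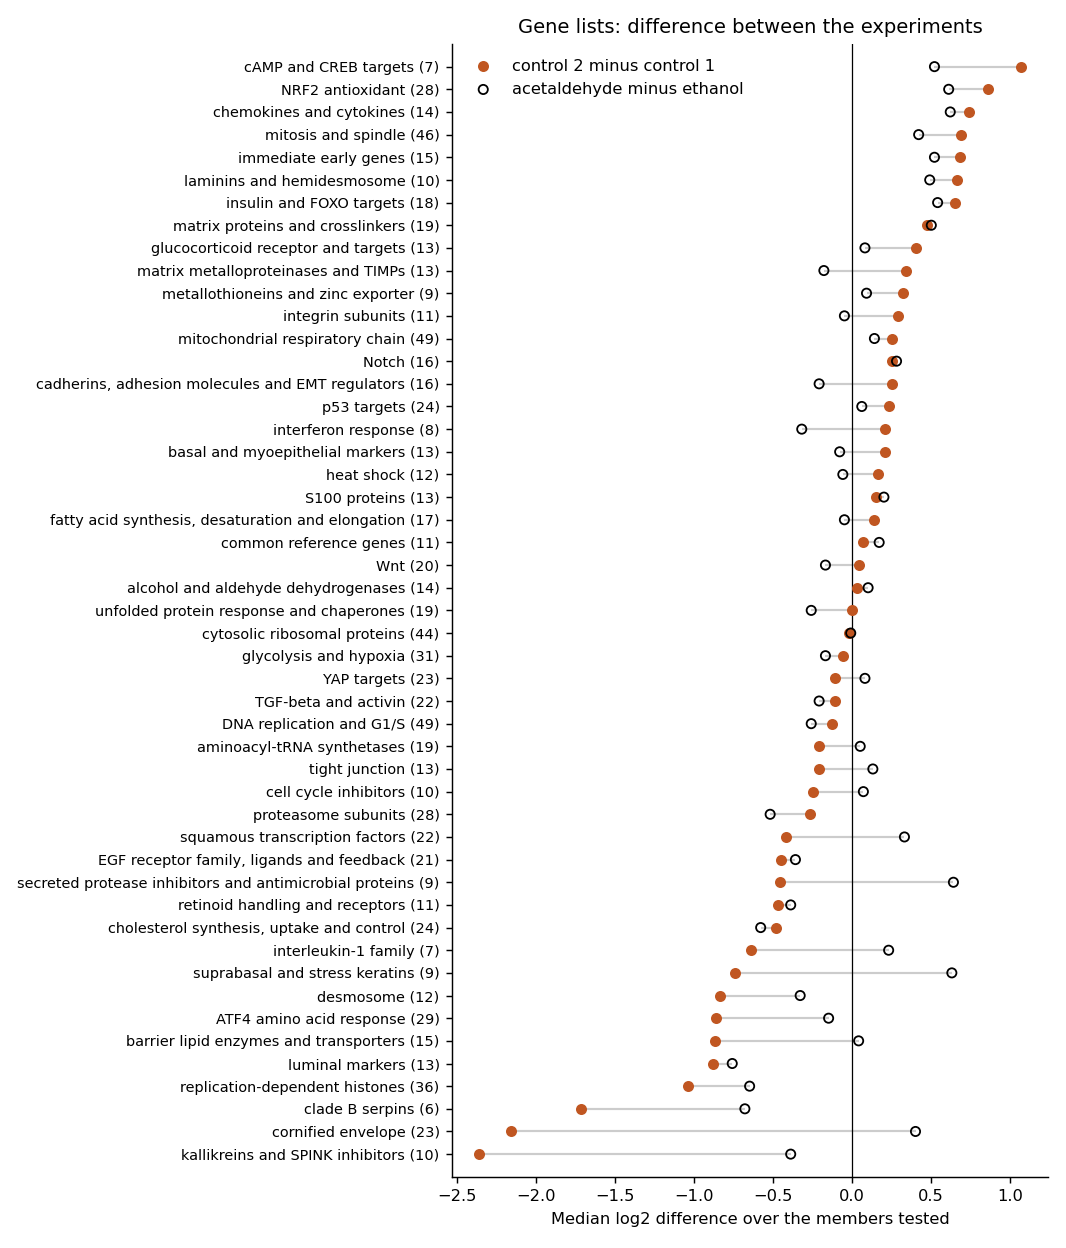
Median log2 difference of each gene list with at least 6 members tested (number in parentheses), filled for control 2 minus control 1 and open for acetaldehyde minus ethanol. The cornified envelope lies below 0 in the unexposed pair and above it in the exposed pair (-2.16 and 0.40). After quantile normalization the exposed median of this list was 0.07. Kallikreins (-2.36 and -0.39), clade B serpins (-1.72 and -0.68), luminal markers and histones lie below 0 in both.

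Genes of the antioxidant response, which the factor NRF2 drives, were higher in control 2. Of 28 tested 24 were higher, 11 at least 2-fold (4.25% of all genes), with a median of 0.86 (0.70 after quantile normalization), and in the exposed pair 24 were higher with a median of 0.61. The quinone reductase NQO1 stood at 1531 in control 1 and 6324 in control 2, and at 2136 and 7385 in the exposed pair (adjusted p = 0.00848, limma). The aldo-keto reductases AKR1C1, AKR1C2 and AKR1C3 were 6.52-fold, 6.08-fold and 6.48-fold higher. These genes are near-identical neighbours on 10p, and the log2 difference of AKR1C1 was 2.71, or 1.91 when its probe sets were averaged. GCLC, the rate-limiting enzyme of glutathione synthesis, stood at 862 and 2628, and thioredoxin reductase (TXNRD1) at 434 and 1339. The cystine importer SLC7A11, which both NRF2 and ATF4 induce, was lower, at 1560.1 and 578. Among reference genes, the transferrin receptor TFRC, which imports iron, stood at 606 and 3049.7 and with acetaldehyde 3.99-fold above ethanol.

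The ATF4 list holds genes of amino acid supply that ATF4 induces. Of 29 tested 21 were lower, 8 at least 2-fold, against 4.85% of all genes, with a median of -0.86 (-0.55 over the 26 bright on all arrays). CHAC1, which degrades glutathione, stood at 1102 in control 1 and 172 in control 2, the pseudokinase TRIB3 at 1149 and 386, and ATF4 itself at 2189 and 859.8. VEGFA, the endothelial growth factor, was 2.76-fold lower. With acetaldehyde against ethanol 12 were higher and 17 lower, with a median of -0.15. The amino acid response element TGATGNAA was found in 4 of 23 promoters (17.4%, against 3.67% of all promoters).

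Cholesterol genes were lower for 16 of 24 tested in both pairs, with medians of -0.48 and -0.58, and 4 were at least 2-fold lower between the controls. ACAT2, which makes acetoacetyl-CoA, stood at 594 and 184, the farnesyl diphosphate synthase FDPS at 941 and 382, and the sterol desaturase SC5D at 1197 and 504. The cholesterol exporters ABCA1 and ABCG1 were higher, at 55.9 and 99.5 in control 1 and 124 and 215 in control 2, 3 of the 4 values under the filter. The sterol regulatory element TCACNCCAC was found in 1 of 21 promoters (4.76%, against 1.15% of all promoters). Of fatty acid enzymes, the desaturase SCD was 2.62-fold lower and FADS2, which acts on polyunsaturated fatty acids, stood at 610.1 and 203, while fatty acid synthase (FASN) stood at 1155 and 2238.

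Genes tied to the growth factors of the medium went different ways. Of 21 genes of the EGF receptor family, its ligands and its feedback inhibitors 17 were lower, 5 at least 2-fold, with a median of -0.45 (-0.36 in the exposed pair). The ligand TGFA stood at 969 and 404, and the feedback inhibitors SPRY2 and DUSP5 at 628 and 791 in control 1 and 245 and 365 in control 2. Of 18 genes of insulin signalling and FOXO factors, which insulin represses, 12 were higher, 6 at least 2-fold, with a median of 0.65 (0.54 in the exposed pair). Besides PDK4 these included IGFBP4, an insulin-like growth factor binding protein, at 342 and 1355, SESN1 at 136 and 478 and the repressor BCL6 at 503 and 1482. Of 13 glucocorticoid genes, ZBTB16 was 4.35-fold higher, and the receptor itself (NR3C1) stood at 1018 and 633. Of 7 cAMP targets 5 were higher, 4 at least 2-fold, and 2 lower, 1 at least 2-fold, against 4.25% and 4.85% of all genes. PPARGC1A, a coactivator that cAMP induces, stood at 86.1 and 556, while RGS2 of the same list was lower, at 3380.5 and 1498. Of the 7, 3 passed the filter through control 2 alone among the controls, and the 3 bright on all arrays had a median of 0.26.

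Immediate early genes, which serum and growth factors switch on within minutes, were higher for 13 of 15, 3 at least 2-fold, with a median of 0.68 (0.52 in the exposed pair). EGR1 stood at 2520.5 in control 1 and 9596 in control 2, and FOS at 787 and 2377. IER3 was lower, at 4440.0 and 2448. Of 7 interleukin-1 family genes 5 were lower, with a median of -0.64 that turned to 0.47 without the filter. The antagonist IL1RN stood at 1846 and 149.5 and the ligand IL1B at 2168 and 599, both opposite in direction to the decoy receptor IL1R2. Of 14 chemokines and cytokines 12 were higher, 5 at least 2-fold, but 6 passed the filter through control 2 alone among the controls and the 4 bright on all arrays had a median of 0.17. Among the 6 were the chemokines CCL20 (47.6 and 274) and CXCL1 (142 and 507).

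Differences between the controls also followed chromosome position. Genes were placed on the arms of GRCh38.p14 by their RefSeq position, an analysis chosen after seeing that neighbouring genes differed alike. On the long arm of chromosome 10 (10q), 306 genes tested had a median of -0.59 with quartiles of -0.92 and -0.05, and 76.5% were lower in control 2, against 45.5% of all genes. On the short arm (10p) the median of 84 genes was 0.28 and 79.8% were higher. In the exposed pair the medians were -0.67 and 0.27. On 10q, 63 genes (20.6%) were at least 2-fold lower and 46 were so in both pairs, so that 12.5% of all genes at least 2-fold lower lay on an arm with 2.95% of the genes placed. Limma called 188 of the 306 genes (61.4%) lower, against 16.6% of all genes, and 20 higher.

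The arms 5p and 9p also stood apart in both pairs. The 77 genes on the short arm of chromosome 5 (5p) had a median of 0.39 (0.43 in the exposed pair), and limma called 35 higher and 2 lower, against 18.6% and 16.6% of all genes. The 103 genes on the short arm of chromosome 9 (9p) had a median of -0.34 (-0.33), with 40 called lower and 7 higher, against 16.6% and 18.6%. Apart from these and chromosome 10, the other 37 arms lay between -0.23 on 13q and 0.31 on 21q. Over all 41 arms with enough genes the medians of both pairs correlated at 0.98. The pairs share no array. Between the unexposed and the exposed culture of the same experiment, by contrast, arm medians lay between -0.09 and 0.16.

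**Figure D4:**
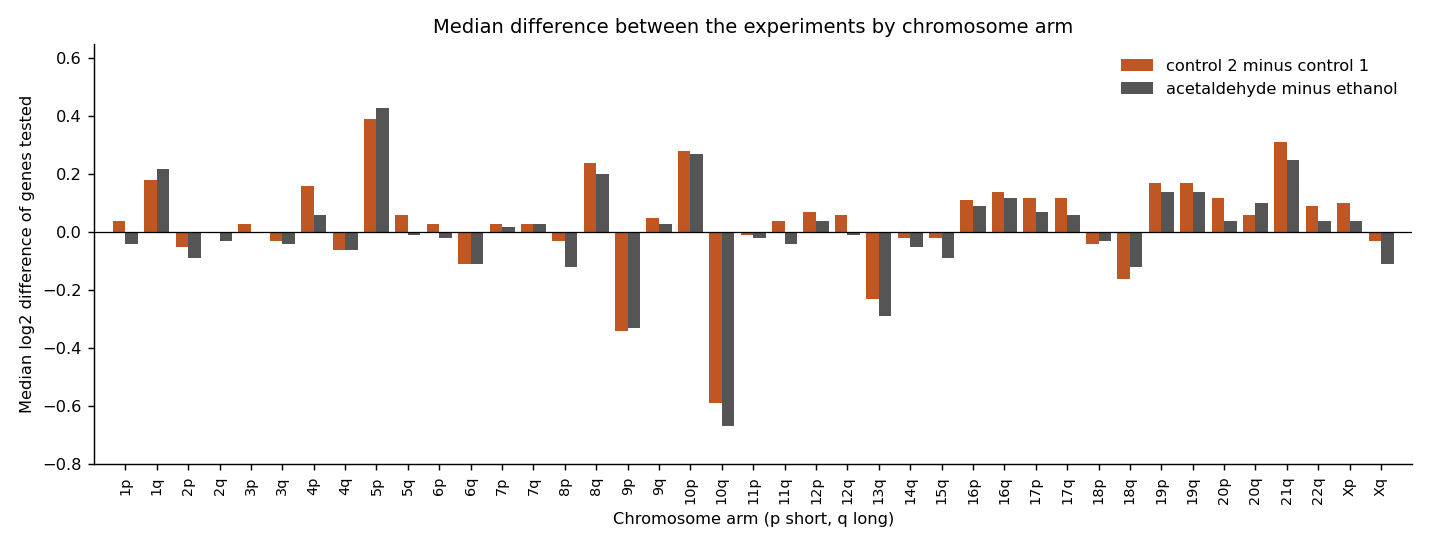
Median log2 difference of the genes tested on each chromosome arm, in orange for control 2 minus control 1 and in grey for acetaldehyde minus ethanol. The bars of both pairs lie close to each other on 10q (-0.59 and -0.67), 5p (0.39 and 0.43) and 9p (-0.34 and -0.33).

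The change along chromosome 10 fell at the centromere. Among genes above the filter on all arrays, 9 of the last 10 on the short arm side were higher in control 2, with a median of 0.18, and 8 of the first 10 on the long arm side were lower, with a median of -0.91. The last gene of the short arm, the zinc finger gene ZNF37A, had a log2 difference of 0.15, and the first of the long arm, BMS1, a ribosome assembly factor, of -0.91. From the centromere region to the end of the long arm, 8 windows of about 30 neighbouring genes had medians between -0.80 and -0.40. The first of these windows spans the centromere and begins with CCNY on the short arm. Over the genome 271 such windows were formed, and 1 other, on 9p, had a median of -0.40 or less. In all, 198 of 239 bright genes on 10q (82.8%) were lower, 193 of them in both pairs. On chromosome 5 the last 10 genes of the short arm had a median of 0.14 and the first 10 of the long arm of -0.47. In the exposed pair these medians were -0.04 and -0.71, with 5 of the 10 short arm genes higher and 5 lower.

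**Figure D5:**
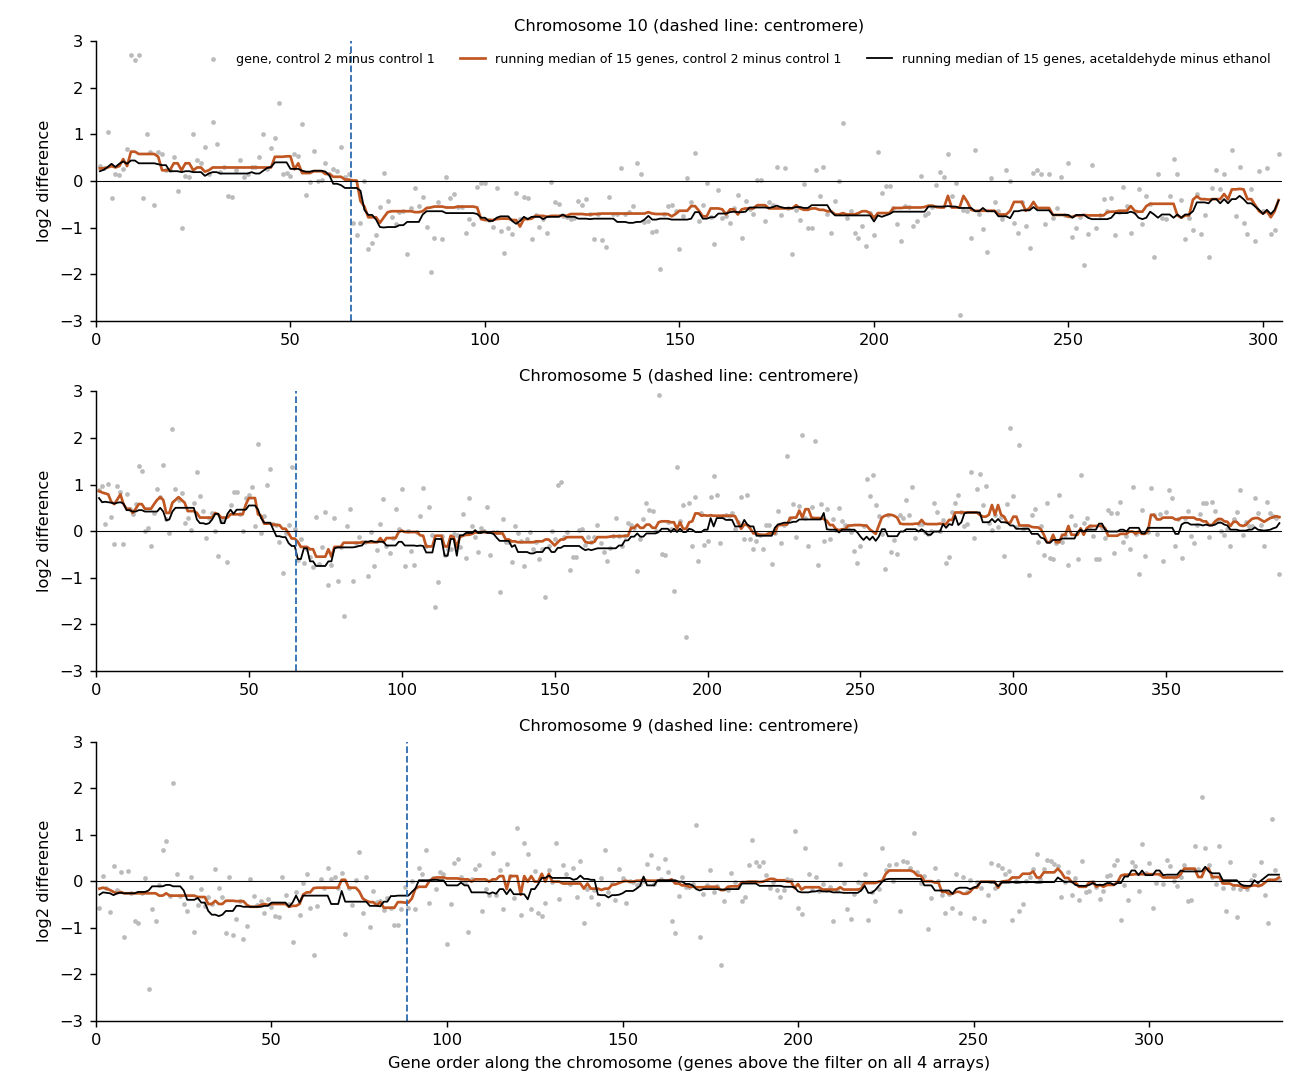
Log2 difference of genes above the filter on all 4 arrays, in their order along chromosomes 10, 5 and 9; grey points are genes in control 2 minus control 1, the orange line their running median over 15 genes and the black line that of acetaldehyde minus ethanol. On chromosome 10 both lines drop at the centromere and stay below 0 to the end of the long arm.

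The genes on 10q that were at least 2-fold lower in both pairs include NT5C2, a nucleotidase, at 2439 in control 1 and 334 in control 2 and at 1581 and 423 in the exposed cultures. The demethylase family member JMJD1C stood at 769 and 197, and the tetraspanin TSPAN14 at 1852 and 499. Several genes of the lists above lie on 10q. SCD, PLAU, DUSP5, the dysferlin relative MYOF (4012 and 1706) and the co-chaperone BAG3 (1474 and 656) were lower. So was the mitophagy receptor BNIP3 (2745 and 1233), though by less than 2-fold in the exposed pair. Other list members on 10q were higher in control 2, among them ABCC2 of the NRF2 list (408 and 971) and the ribosomal protein gene RPS24 (1568 and 2047). Of the 10 mitotic genes that were lower in control 2, 5 lie on 10q: BUB3, CEP55, KIF11, CDK1 and KIF20B. Off 10q, 35 of 40 mitotic genes were higher, with a median of 0.78. The AKR1C genes lie on 10p, and the NRF2 list had a median of 0.61 after each gene was set against its arm, while the envelope list had -2.33 and the histones -1.07. The DNA of these cultures was not measured.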

How the data were processed

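The deposited table holds 1 linear intensity per probe set and array, made by the authors with RMA, per the submitters' processing notes; the software version is not given in the sources used here. Of 33297 probe sets, 19460 carried 1 gene symbol, 1754 several and 12083 none; those with 1 symbol gave 18417 genes, the probe set with the highest mean standing for 769 genes with several. Intensities were taken to log2 here from the deposited values, with no pseudocount, since the lowest was 3.13. Genes reaching log2 7.28 (intensity 155) on at least 1 array were tested: 10373, of which 8180 passed on all 4 arrays and 10065 on at least 1 control.

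The controls were compared by log2 difference, with a 2-fold threshold and no test, because each had 1 array. The experiment was tested with limma 3.58.1 in R 4.3.3 (lmFit and eBayes over all 10373 genes, terms for experiment and exposure, Benjamini-Hochberg adjustment, threshold 0.05). It treats ethanol and acetaldehyde as one exposure and has 1 residual degree of freedom, with a prior of 3.68 degrees of freedom, and its p-values measure only the spread between these arrays, which may be technical. The code was tested on simulated data. Tables and figures were made with Python 3.11.15, pandas 2.3.3, numpy 2.4.6 and matplotlib 3.10.9. Gene positions and promoters came from RefSeq (GRCh38.p14), matched by gene identifier for 19429 probe sets.

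The gene lists and members were chosen with earlier results of these data known. Genes named are the 15 highest and 15 lowest differences, the members of each list that lay farthest apart (8 at most), lineage markers, and the 5 smallest p in each direction of the experiment test. DSG2, FLG, IVL, KRT10, LCE1C, PCNA, S100A9, SPRR1A, SPRR1B, VIM, the genes at the threshold and the genes named for their chromosome position or for a difference from their list were chosen after their values were seen. Array number, 4, limits the precision, and no read depth exists. Alternatives were quantile or median normalization of all 4 arrays, other filters, a 1.5-fold threshold, the mean over probe sets, and leaving out each array. Subtracting each arm's median and splitting by arm were chosen after seeing the data.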

Additional observations from a re-analysis of the deposited data

Results flagged for a closer look

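For 4 gene lists the median difference between the controls was at least 0.5 in size on the log2 scale and had the opposite sign in the exposed pair. Lists with smaller medians between the controls were not considered. The difference between the pairs was not tested, since each pair has 1 array per culture. The cornified envelope list had a median of -2.16 for control 2 minus control 1 and 0.40 for acetaldehyde minus ethanol. The second value was 0.07 after quantile normalization and 0.16 over the 9 genes bright on all arrays, so it lay near 0. Suprabasal and stress keratins had -0.74 and 0.63. The second value was 0.38 after quantile normalization, and only 1 of these 9 keratins was bright on all arrays. Barrier lipid enzymes and transporters had -0.87 and 0.04, where the second value turned to -0.09 after quantile normalization. The interleukin-1 family had -0.64 and 0.23, led downward by IL1RN and IL1B and upward by IL1R2, but without the filter its median between the controls was 0.47.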

How the results depend on the processing

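The controls could not be compared in replicate pairs, because each group has 1 array. In the limma test each control stood beside the exposed culture of its own experiment, through the terms for experiment and exposure. Among genes above the filter on all 4 arrays, 231 were at least 2-fold higher in control 2 and 322 lower. Without a filter 988 were higher and 549 lower, and at a 1.5-fold threshold 1549 and 1340. Without the filter, list medians were -1.23 for the cornified envelope, -0.24 for keratins, -0.79 for kallikreins, -0.82 for serpins, -0.58 for barrier lipids, -0.27 for luminal markers, 0.29 for fibroblast markers, 0.35 for laminins and 0.28 for cAMP targets, and turned to 0.47 for the interleukin-1 family and 0.16 for retinoid genes. Among genes bright on all arrays they were -0.85 for squamous transcription factors, -0.59 for desmosomes, -0.50 for tight junctions, 0.26 for fibroblast markers and 0.03 for matrix proteins. They were also 0.26 for cAMP targets, -1.16 for the interleukin-1 family, 0.17 for chemokines, -0.70 for cholesterol genes and -0.55 for the ATF4 list. The endothelial value of 0.71 was that of ENG, the 1 endothelial marker bright on all arrays. For barrier lipids the median turned to 0.02. Quantile normalization gave -0.96 for keratins and 0.47 for chemokines. Set against their arm, NRF2 genes had 0.61 and alcohol and aldehyde dehydrogenases 0.29. The other list medians moved by less than 0.21, the spread between control 2 and acetaldehyde, and kept their sign or were within that of 0. Limma called 6006 genes higher in the acetaldehyde experiment without a filter, and with 1 array left out between 0 and 2099 higher and between 0 and 2081 lower. Fewer or other genes were tested under each filter, and beyond this the cause was not tested. No read depth exists for arrays, and a value under the filter of 155 is close to background.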

Other observations

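Some of the other lists examined were close to all genes in both pairs. Cytosolic ribosomal protein genes had a median of -0.02 over 44 members, with none 2-fold apart. Of 28 proteasome subunits, which degrade tagged proteins, 23 were lower in control 2 and 27 lower with acetaldehyde than with ethanol, with medians of -0.27 and -0.52 and none 2-fold apart between the controls. Limma called 11 of them lower and 1 higher, against 16.6% and 18.6% of all genes. Of 49 respiratory chain genes 34 were higher, with a median of 0.25 (0.14 in the exposed pair). Genes of glycolysis and hypoxia had a median of -0.06, aminoacyl-tRNA synthetases of -0.21 and heat shock genes of 0.16. Common reference genes had a median of 0.07 over 11 members, with TFRC as the 1 member 2-fold apart. Genes of the unfolded protein response went both ways, 9 higher and 10 lower.

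Among signalling lists, Notch genes were higher for 13 of 16, with a median of 0.25 (0.28 in the exposed pair) and none 2-fold apart. TGF-beta and YAP lists both had a median of -0.11, Wnt genes of 0.04 and integrin subunits of 0.29. Retinoid genes were lower for 9 of 11, 4 at least 2-fold, with LRAT the lowest. Interferon response genes had a median of 0.21 and -0.32 in the exposed pair. Targets of p53 had a median of 0.23, cell cycle inhibitors of -0.25, metalloproteinases and their inhibitors of 0.34, metallothioneins, which are near-identical copies, of 0.32, and glucocorticoid genes of 0.40. Alcohol and aldehyde dehydrogenases, the enzymes that handle ethanol and acetaldehyde, had a median of 0.03 over 14 members, with 3 at least 2-fold higher in control 2 and 2 lower.

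By RNA class, 109 long non-coding RNA genes had a median of 0.44 (0.29 after quantile normalization) and 84 small nucleolar RNA genes of -0.09, against 0.05 for 9989 protein-coding genes.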
